A study of Rattus norvegicus with 7 samples.

Results

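Keratins and the transcription factor Tp63 were followed in ROE2 cells, a rat oral epithelial cell line, exposed to sodium fluoride (NaF). The genes were the basal keratins Krt5, Krt14, Krt15 and Krt17, the mucosal keratins Krt4 and Krt13, the simple-epithelium keratins Krt8, Krt18 and Krt19, and Tp63. They were found by their symbol in the annotation of the array, which gave 11 probe sets for the 10 genes among 14218 named genes and 31099 probe sets of the array. Of these, 7 probe sets of 7 genes reached a log2 signal of 7 on any array and were tested, as 11769 probe sets of the whole array were. The 4 probe sets that did not reach it were those of Krt4, Krt18 and Krt19 and the other probe set of Tp63.

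The cells were treated with 2 mM NaF for 3, 6 and 12 h, and vehicle (sterilized water) was sampled at 0, 3, 6 and 12 h. All groups shared the same line, which was derived from the tongue of an 18-day-old fetus of a Wistar rat transgenic for a temperature-sensitive SV40 large T-antigen, and all cells were cultured at 37 °C for 24 h before the treatment, against 33 °C for routine growth. For every condition the RNA of 3 independent experiments was pooled and measured on 1 Affymetrix Rat Genome 230 2.0 array, which left every condition without replicates. The line is a single immortalized line, and the spread given below is that between 4 pooled vehicle samples of different times.

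Keratins are the intermediate filament proteins of epithelial cells, and each filament is built from pairs of a type I and a type II keratin. In the stratified epithelium of mouth and skin the basal layer expresses the pair of Krt5 and Krt14, the cells above it in the non-cornified mucosa switch to Krt4 and Krt13, and single-layered epithelia use Krt8 with Krt18 and Krt19. Tp63 is a p53 family transcription factor that maintains the basal cells of stratified epithelia and binds near the Krt5 and Krt14 genes.

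At 12 h of NaF, 6 of the 7 tested genes had fallen below the 4-array vehicle mean, in a limma fit over all tested probe sets at an adjusted p under 0.05. They were Krt5, Krt15, Krt17, Krt13, Krt8 and Tp63, with log2 changes between -1.28 for Krt15 and -0.38 for Krt5. Krt15 reached the signal limit only through vehicle arrays, which favours a fall, and without it 5 of 6 tested genes were called lower. Krt14, the type I partner of Krt5, did not pass the test. The calls of Krt15 and Krt13 ended without the signal filter (adjusted p = 0.081 and 0.13) and without the vehicle array of 3 or 6 h, which left 4 genes in each case. Over all tested probe sets 30.8% were called lower and 29.7% higher at this time, and the median log2 change of the 7 genes was -0.51, against -4.5e-05 over all tested probe sets. In pooled cultures a smaller number of cells of a type and less RNA per cell cannot be told apart.

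**Figure D1:**
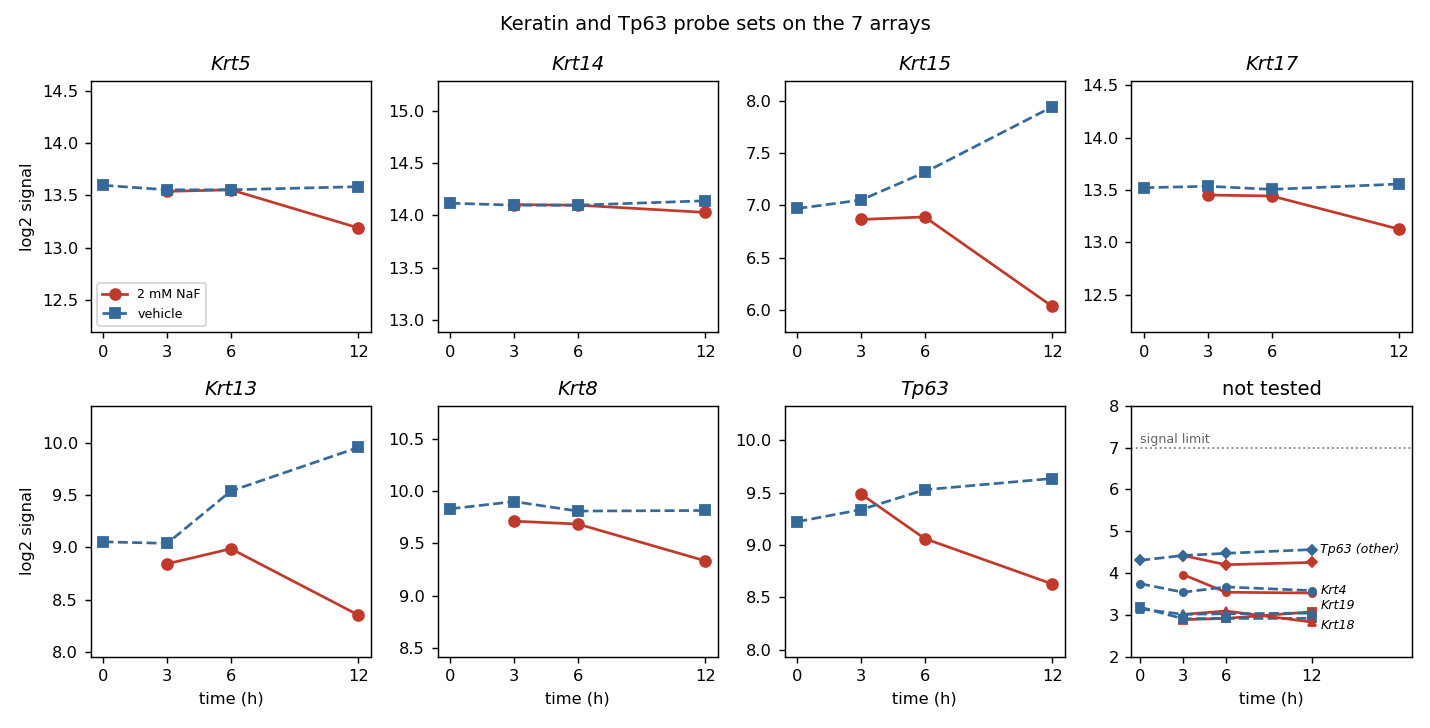
Log2 signal (vertical axes, each panel spanning the same height except the last) against hours of treatment, for 2 mM NaF (circles, solid line) and vehicle (squares, dashed line), 1 pooled array per point; the last panel holds the 4 probe sets below the signal limit of 7. The NaF 12 h point is below every vehicle point in all 7 tested panels, and in vehicle the lines of Krt15 and Krt13 end above their start while those of Krt5, Krt14, Krt17 and Krt8 stay level.

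Krt5, the type II keratin of basal cells, had log2 signals of 13.54, 13.55 and 13.19 at 3, 6 and 12 h of NaF, against 13.60, 13.55, 13.55 and 13.58 at 0, 3, 6 and 12 h of vehicle. The NaF 12 h array was the low one, and the arrays of 3 and 6 h were within 0.02 of the vehicle array of their time. Against the vehicle mean, Krt5 fell by 0.38 at 12 h (SE 0.059, limma adjusted p = 0.0029), while the changes at 3 and 6 h were -0.03 and -0.02 (adjusted p = 0.78 and 0.84). The 12 h level was 1.31-fold lower than in vehicle of 12 h.

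Krt14, its type I partner, had 14.10, 14.10 and 14.03 in NaF and 14.12, 14.10, 14.10 and 14.14 in vehicle. The NaF 12 h array was again the lowest, and the other NaF arrays lay among the vehicle arrays. The change at 12 h was -0.08 (SE 0.059, limma adjusted p = 0.26), and quantile normalization turned its sign, to 0.051. This probe set lay between 0 and 0.106 below the brightest probe set of its array, so it sat at the upper end of the measured range on all arrays. Those of Krt5 and Krt17 were also near the top, 0.54 to 0.84 and 0.62 to 0.90 below the brightest. Whether this position made the changes of these genes smaller was not tested. The signal of Krt14 was exactly the same on the NaF 6 h array and the vehicle arrays of 3 and 6 h, and such exact ties between arrays occurred in 23.3% of the tested probe sets of the deposited table.

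Krt17, a type I keratin known from basal cells of skin appendages and from injured or activated keratinocytes, had 13.45, 13.44 and 13.13 in NaF, against 13.52, 13.54, 13.51 and 13.56 in vehicle. All 3 NaF arrays lay below all 4 vehicle arrays, most clearly at 12 h. Its changes were -0.08, -0.09 and -0.40 at 3, 6 and 12 h (SE 0.059, limma adjusted p = 0.49, 0.29 and 0.0024), so only the last one passed the test.

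Krt15, a type I keratin of basal cells that is often used as a marker of progenitor cells, had 6.86, 6.89 and 6.03 in NaF, against 6.97, 7.05, 7.31 and 7.94 in vehicle. The groups did not overlap, and the vehicle levels were higher at each later time. At 12 h it was 3.75-fold lower than in vehicle of 12 h, a log2 difference of -1.91. Against the vehicle mean it fell by 1.28 (SE 0.36, limma adjusted p = 0.025), and at 3 and 6 h the changes were -0.45 and -0.43 (adjusted p = 0.51 and 0.40). Krt15 passed the signal limit only through vehicle arrays, and without it 5 of 6 tested genes were called lower at 12 h.

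Krt13, the type I keratin of the cell layers above the basal layer of oral mucosa, had 8.84, 8.99 and 8.35 in NaF, against 9.05, 9.04, 9.54 and 9.96 in vehicle. Here too every NaF array was below every vehicle array, and the vehicle arrays of 6 and 12 h were the high ones. The NaF 12 h level was 3.03-fold lower than vehicle of the same time (-1.60 on the log2 scale). Against the vehicle mean it fell by 1.04 at 12 h (SE 0.36, limma adjusted p = 0.049), at the edge of the threshold, and the call was lost without the vehicle array of 0, 3 or 6 h (adjusted p = 0.066, 0.062 and 0.11). The call of Krt15 was lost without the vehicle array of 3 or 6 h (adjusted p = 0.051 and 0.065).

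Krt4, the type II partner of Krt13 in mucosa, did not reach the signal limit. It had 3.97, 3.54 and 3.52 in NaF and 3.75, 3.54, 3.67 and 3.58 in vehicle, with overlapping groups. Of the mucosal pair only Krt13 was therefore tested.

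Krt8, the type II keratin of simple epithelia, had 9.71, 9.69 and 9.33 in NaF, against 9.83, 9.90, 9.81 and 9.81 in vehicle. All NaF arrays were below all vehicle arrays, with the 12 h array farthest away. It changed by -0.13, -0.15 and -0.51 at 3, 6 and 12 h (SE 0.066, limma adjusted p = 0.31, 0.12 and 0.0016), and the fall at 12 h was 1.40-fold against vehicle of the same time.

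Its type I partners were below the signal limit on every array. Krt18 had 2.89, 2.92 and 3.07 in NaF and 3.19, 2.91, 2.92 and 2.92 in vehicle, and Krt19 had 3.01, 3.09 and 2.83 in NaF and 3.15, 3.01, 3.03 and 3.04 in vehicle. Both genes had overlapping groups at these levels, where differences were not tested. Just inside the limit of 7 among the listed genes was Krt15, with a highest signal of 7.94, and just outside was the other probe set of Tp63, with a highest signal of 4.56.

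RefSeq promoter sequences (GRCr8) were at hand for 5 of the 10 genes, namely Krt4, Krt5, Krt8, Krt18 and Tp63. The 120 bases before the annotated start are shown for Krt5 and Krt8, which both fell at 12 h, and for Krt18, the neighbour of Krt8 on the same chromosome, whose probe set lay at the bottom of the signal range. Capitals mark a TATAA or TTATA match (TATAA on either strand), a match to TGANTCA or a match to the p53 family half-site, all searched on both strands.
Krt5, chr7:134730570-134730689, minus strand: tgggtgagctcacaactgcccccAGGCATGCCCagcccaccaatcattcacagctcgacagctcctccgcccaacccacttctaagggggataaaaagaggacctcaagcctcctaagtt
Krt8, chr7:135010340-135010459, minus strand: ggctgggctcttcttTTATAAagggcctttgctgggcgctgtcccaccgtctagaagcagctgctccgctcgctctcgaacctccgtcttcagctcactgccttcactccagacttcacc
Krt18, chr7:135036048-135036167, plus strand: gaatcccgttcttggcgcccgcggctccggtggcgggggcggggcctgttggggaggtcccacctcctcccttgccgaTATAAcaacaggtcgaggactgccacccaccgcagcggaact

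The Krt5 window held a p53 family half-site with its first base at position -97 from the start, a motif that Tp63 can bind. That motif was present in 7.98% of 33469 rat promoters of 300 bases (250 before and 50 after the start). TATAA matches stood at positions -105 and -104 in Krt8, one on each strand, at -42 in Krt18 and at -35 in Krt4, whose sequence is not shown, and 26.2% of the promoters held one. TGANTCA, the AP-1 motif, matched in Krt8 at 14, after the start and outside the bases shown, and in Krt4 at -249, and was in 7.33% of the promoters. None of these was found in the 300 bases of Tp63, which says only that these letters are not in that window.

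Tp63 had log2 signals of 9.49, 9.06 and 8.63 at 3, 6 and 12 h of NaF, against 9.22, 9.34, 9.53 and 9.64 at 0, 3, 6 and 12 h of vehicle. The NaF array of 3 h lay among the vehicle arrays, and those of 6 and 12 h lay below all of them. The changes against the vehicle mean were 0.06, -0.37 and -0.80 (SE 0.16, limma adjusted p = 0.87, 0.12 and 0.0075), and at 12 h Tp63 was 2.01-fold lower than in vehicle of 12 h. The other probe set of Tp63 had 4.42, 4.20 and 4.25 in NaF and 4.31, 4.42, 4.47 and 4.56 in vehicle, and it was not tested.

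At 3 h of NaF 0 of the 7 tested genes were called by limma, and 0 had an unadjusted p under 0.05. Of all 11769 tested probe sets, 2912 had such an unadjusted p at 3 h. Over all tested probe sets 2.87% were called higher and 5.9% lower at 3 h. At 6 h, too, 0 of the 7 were called, where 16.9% of all tested probe sets were called higher and 21.5% lower. An unadjusted p under 0.05 at 6 h was found for 0 of the 7 genes and for 5736 of all 11769 tested probe sets. The median change of the 7 genes was -0.08 at 3 h and -0.15 at 6 h, against -0.01 and 0.01 over all tested probe sets.

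Whether the genes moved further between 3 and 12 h was tested directly between the NaF arrays, which takes no account of changes in vehicle. Between these times of NaF 4 of the 7 genes fell, where 23.5% of all tested probe sets were called lower and 25% higher at 12 h than at 3 h. Tp63 fell by 0.86 (SE 0.20, limma adjusted p = 0.018), Krt8 by 0.38 (SE 0.083, adjusted p = 0.014), Krt5 by 0.35 (SE 0.075, adjusted p = 0.013) and Krt17 by 0.33 (SE 0.075, adjusted p = 0.016). The call of Tp63 ended without the signal filter (adjusted p = 0.064), and with the mean of both its probe sets the change was -0.51 (adjusted p = 0.048). Krt15, Krt13 and Krt14 had differences of -0.83, -0.49 and -0.07 and did not pass (adjusted p = 0.19, 0.41 and 0.45).

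With the 3 NaF arrays as a group against the 4 vehicle arrays, 0 of the 7 genes were called by limma. An unadjusted p under 0.05 was found for 3 of the 7 (Krt15, Krt13 and Krt8) and for 3630 of all 11769 tested probe sets. In this fit 4.34% of all tested probe sets were called higher and 4.3% lower. The changes lay between -0.72 for Krt15 (adjusted p = 0.14) and -0.04 for Krt14 (adjusted p = 0.73). Every NaF array was below every vehicle array for 4 of the 7 genes (Krt15, Krt17, Krt13 and Krt8), an order found in 15% of all tested probe sets. For Krt15 this order and the low unadjusted p are favoured by the signal limit, which it reached only through vehicle arrays. The NaF 12 h array alone was below every vehicle array for all 7 tested genes, as it was in 41.9% of all tested probe sets.

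A change of 2.5-fold from vehicle of the same hour was reached by 2 of the 7 genes, Krt15 and Krt13, and only at 12 h, among the tested genes listed here. Krt15 was among the tested genes only through its vehicle signal. Such changes, which compare 1 array with 1 array and carry no test, were seen in 0.637%, 2.55% and 4.85% of all tested probe sets at 3, 6 and 12 h. Tp63, at 2.01-fold, was the next of the tested genes, and Krt5, Krt17 and Krt8 lay between 1.31-fold and 1.40-fold.

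**Figure D2:**
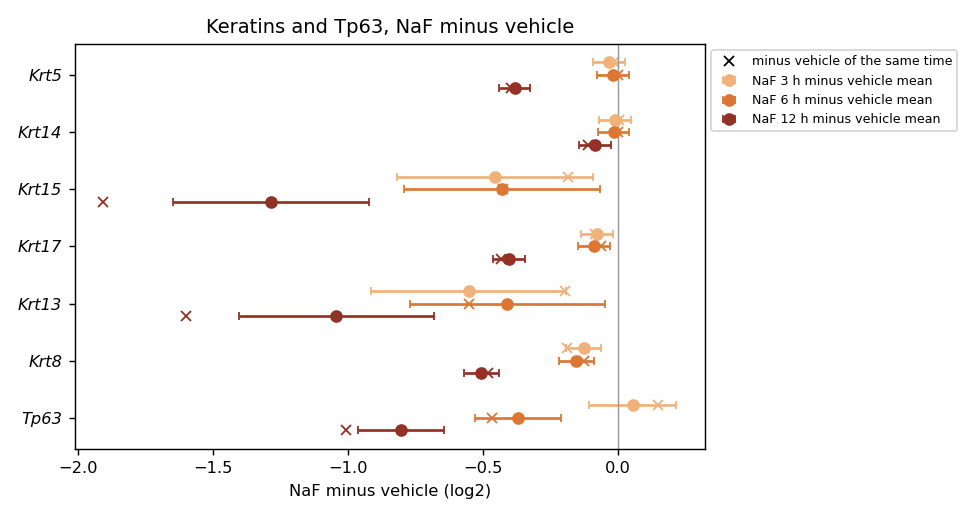
Log2 difference of NaF minus vehicle (horizontal axis) for the 7 tested genes; circles with bars give the change against the mean of the 4 vehicle arrays with its limma standard error, and crosses the difference to vehicle of the same hour. For Krt15 and Krt13 at 12 h the crosses, at -1.91 and -1.60, lie well below the circles, at -1.28 and -1.04.

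For Krt15, Krt13 and Tp63 the vehicle signals themselves differed between times. At 12 h of vehicle, Krt15 was 0.97 above its level at 0 h, Krt13 0.90 and Tp63 0.41 on the log2 scale, while Krt5, Krt14, Krt17 and Krt8 differed by -0.01, 0.02, 0.03 and -0.02. A difference as large as that of Krt15 was seen in 7 of 11769 tested probe sets (0.0595%), as large as that of Krt13 in 10 (0.085%) and as large as that of Tp63 in 244 (2.07%). Among the probe sets with a single gene symbol, Krt15 ranked 1 and Krt13 ranked 4 by this difference. Krt15 reached the signal limit of 7 only on vehicle arrays after 0 h (6.97 at 0 h), which favours such a rise.

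The slope over the 4 vehicle times was 0.084 per h for Krt15, 0.082 for Krt13 and 0.035 for Tp63. That of Krt15 is favoured by the signal limit in the same way. With 2 residual degrees of freedom, 0 probe sets passed limma's test of the slope and 971 had an unadjusted p under 0.05, these 3 genes among them (adjusted p = 0.55 for each). The arrays of 12 h of NaF were also below the vehicle array of 0 h, by log2 differences of -0.94 for Krt15, -0.70 for Krt13 and -0.59 for Tp63.

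**Figure D3:**
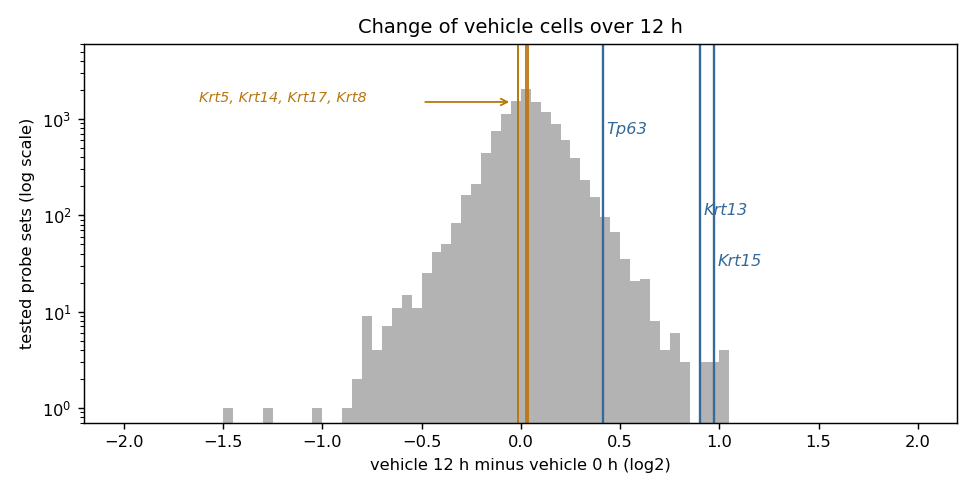
Histogram of the difference between 12 h and 0 h of vehicle (horizontal axis, log2) over the 11769 tested probe sets, counted on a logarithmic vertical axis, with vertical lines at the 7 tested genes. Krt15 (0.97) and Krt13 (0.90) stand in the far right tail, Tp63 (0.41) on the right flank, and Krt5, Krt14, Krt17 and Krt8 near 0. Krt15 reached the signal limit only in vehicle after 0 h, which favours a rise.

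When each NaF array was set against a straight line through the vehicle arrays at its own time, a fit chosen after the data were seen, 3 of the 7 genes were called lower at 6 h, where 21.6% of all tested probe sets were. They were Krt15, Krt13 and Tp63, with changes of -0.49, -0.47 and -0.40 (limma adjusted p = 0.019, 0.04 and 0.015). Without Krt15, whose signal passed the limit in vehicle only, 2 of 6 genes were called at 6 h and 5 of 6 at 12 h. At 12 h Krt5, Krt15, Krt17, Krt13, Krt8 and Tp63 were lower by this fit too, where 28.1% of all tested probe sets were. Krt15 fell by 1.85 (SE 0.12, adjusted p = 0.0014), Krt13 fell by 1.60 (SE 0.15, adjusted p = 0.0022) and Tp63 fell by 1.04 (SE 0.088, adjusted p = 0.0019) against this line.

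All pairs of the 7 tested genes were positively correlated over the arrays. The Pearson correlation of log2 signals was 0.98 for Krt13 and Krt15, 0.98 for Krt8 and Krt17 and 0.97 for Krt5 and Krt17, and the lowest of all pairs was 0.69 for Krt8 and Krt13. These are descriptions over 7 arrays that share the time course and the treatment. In the RefSeq annotation of GRCr8 Krt13 and Krt15 are neighbours among the protein-coding genes of the type I keratin cluster, followed by Krt19, and Krt8 and Krt18 are neighbours too.

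Among 7838 other genes, those most like Tp63 over the 7 arrays were Kiaa1671 (r = 0.989), Hdgfl2 (0.984), Prkci (0.983), Rbm3 (0.98) and Racgap1 (0.978). The genes most like Krt15 were Mdh1 (0.987), Hltf (0.985), Tacc3 (0.984), Stmn1 (0.981) and Krt13 (0.978). Prkci encodes an atypical protein kinase C of cell polarity, and Racgap1, Tacc3 and Stmn1 encode proteins of the mitotic spindle and cytokinesis. The other matches include Mdh1, a malate dehydrogenase, and Rbm3, an RNA-binding protein. All were picked for profiles in which 12 h of NaF is low, so their own changes are not given as results.

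Of 16 other keratin genes on the array, with 18 probe sets, 3 genes reached the signal limit. Krt6c, named in the annotation for probe sets that may also detect the closely related Krt6a, had 3 of them, and its brightest fell by 0.20 at 12 h (SE 0.058, limma adjusted p = 0.027). Its other probe sets changed by -0.56 (adjusted p = 0.00072) and -0.30 (adjusted p = 0.086). Krt7, a keratin of simple and glandular epithelia, fell by 0.67 (SE 0.16, adjusted p = 0.014), and Krt12, known as the keratin of the cornea, by 0.43 (SE 0.079, adjusted p = 0.0056). None of these was called at 3 or 6 h. The other 13 keratin genes stayed below the limit, among them Krt10, a keratin of cornified epidermis, with at most 6.94, and Krt1, with at most 3.54.

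Genes around the keratin filaments and target genes of p63 were counted from lists that had been chosen with earlier results of these data known. Each gene was represented by its brightest tested probe set. Of 25 tested partners of keratin filaments, 17 fell and 4 rose at 12 h, with a median change of -0.39, beside 30.8% lower and 29.7% higher over all tested probe sets. The plakins Evpl (envoplakin), Dst (dystonin), which anchors keratins at hemidesmosomes, and Eppk1 (epiplakin), and the desmosomal plaque protein Pkp2, fell, with log2 changes of -1.60, -1.48, -1.28 and -1.12 (limma adjusted p between 0.00019 and 0.00027). Dst, Eppk1 and Fam83h were the 3 partners called lower at 3 h, beside 5.9% of all tested probe sets, with log2 changes for Dst and Eppk1 of -0.48 and -0.35 (adjusted p = 0.021 and 0.032), a time when no listed keratin was called. The partners that rose were Csnk1a1, Tgm1, Pnn and Tchh.

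Of 30 tested target genes of p63 in basal epithelium, 20 fell and 4 rose at 12 h, with a median of -0.44, beside the same 30.8% and 29.7%. Aqp3, an aquaglyceroporin of basal cells, fell by 1.63, Bnc1 (basonuclin, a zinc finger protein of basal keratinocytes) changed by -1.50 and Igfbp3 by -1.37 (limma adjusted p = 0.00039, 0.00044 and 0.00027), and Dst is also on this list. The 4 that rose were Chuk, Ripk4, Cldn1 and the Notch ligand Jag2. At 3 h, 2 of the 30 were lower, Dst and Bnc1, beside 5.9% of all tested probe sets. At 6 h 8 were lower, beside 21.5%, and 1, Ripk4, was higher, beside 16.9%, so the counts of lower genes at 3 and 6 h were near those shares. The list shares Dst and Sfn with the filament partners and Perp, Cdh3 and Cldn1 with the epithelial identity genes, so the counts are not independent. It was not divided by whether p63 activates or represses a gene, so the counts are no measure of Tp63 activity.

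Of 15 tested epithelial transcription factors other than Tp63, 7 were higher and 5 lower at 12 h, beside 29.7% higher and 30.8% lower over all tested probe sets, so the count of lower factors was near that share. Cebpb and Pax9 rose by 1.41 and 1.21 (limma adjusted p = 0.00022 and 0.00078), and Pitx1, a homeobox factor of the oral region, and Hopx fell, by log2 changes of -1.10 and -1.09 (adjusted p = 0.0011 and 0.00081). At 3 h, when Tp63 had changed by 0.06, the lower ones were Foxq1, Sox2 and Tfap2a and the higher one was Runx1. The shares over all tested probe sets were 5.9% lower and 2.87% higher at that time. At 6 h 5 factors were lower and 4 higher, beside 21.5% and 16.9%. Tfap2a turned, with changes of -0.57 and -0.78 at 3 and 6 h and a call as higher at 12 h, by 0.40. Sox2, a factor of oral and tongue progenitor cells that was singled out after its values were seen, had 7.03, 6.87 and 7.81 in NaF, against 8.48, 8.50, 8.56 and 8.58 in vehicle. It was lowest at 3 and 6 h of NaF, with changes of -1.50, -1.66 and -0.72 (adjusted p = 0.0021, 0.00041 and 0.00063), and its other tested probe set was called lower at all 3 times as well.

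Of 10 tested genes of squamous differentiation, 9 fell at 12 h and 1, the transglutaminase Tgm1, rose, with a median of -0.63, beside 30.8% lower and 29.7% higher over all tested probe sets. Dmkn, Cnfn, Krtdap and Sprr3 fell, with log2 changes of -1.46, -1.29, -1.26 and -1.11 (limma adjusted p between 0.00022 and 0.014). Of 6 other tested intermediate filament genes 3 fell and 0 rose, led by Vim (vimentin), whose changes at 3, 6 and 12 h were -0.01, -0.12 and -1.19 (adjusted p = 0.97, 0.18 and 0.0002). Lmnb1, a lamin of the nuclear envelope, had changes of -0.68, -2.20 and -1.15 (adjusted p = 0.012, 0.00041 and 0.00034), so it was lower at every time, and Lmna fell by 0.47 at 12 h (adjusted p = 0.0015).

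**Figure D4:**
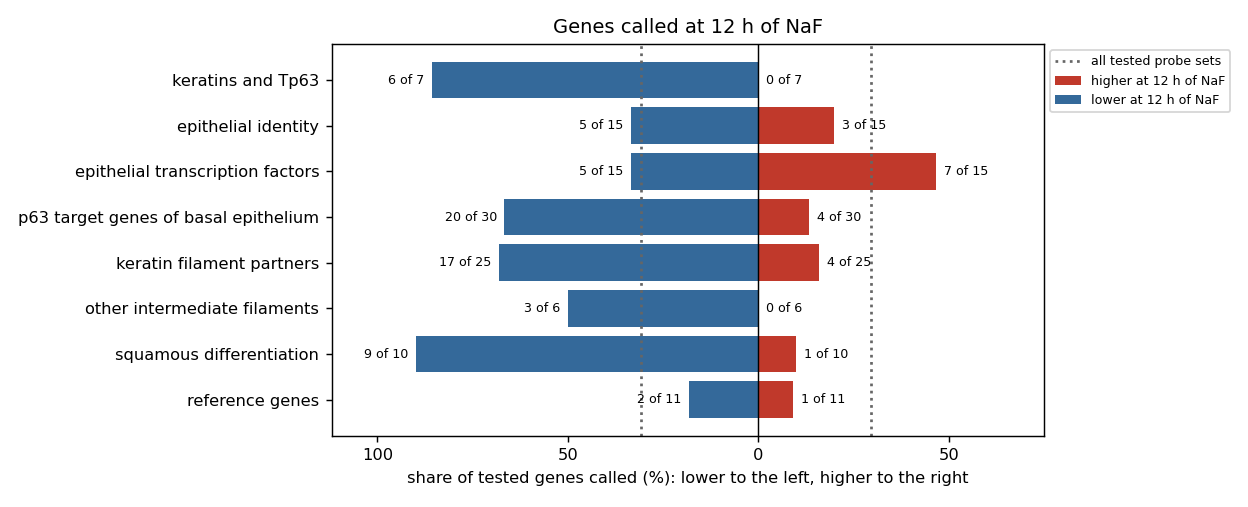
Share of tested genes (horizontal axis, percent) called lower (left) and higher (right) at 12 h of NaF in each list, with the count beside each bar and dotted lines at the share over all tested probe sets, 30.8% lower and 29.7% higher. The bars to the left are long for the keratins and Tp63 (6 of 7, or 5 of 6 without Krt15) and squamous differentiation (9 of 10). They are also long for filament partners (17 of 25) and p63 targets (20 of 30). The epithelial identity genes stay near the dotted line with 5 of 15.

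The epithelial label of the cells was checked against marker lists. Of 18 epithelial identity genes on the array 15 reached the signal limit. At 12 h 5 of the 15 were lower and 3 higher, with a median of -0.03, beside 30.8% lower and 29.7% higher over all tested probe sets. The count of lower genes was thus near that share. Dsg2, a desmosomal cadherin, fell by 1.06 (limma adjusted p = 0.00071), Ap1m2 by 0.51 (adjusted p = 0.0045) and Perp by 0.50 (adjusted p = 0.0014), and Cldn1 rose by 0.42 (adjusted p = 0.039). Mesenchymal, muscle, leukocyte, endothelial, neural and gland lists had 2 of 19, 1 of 12, 1 of 13, 1 of 11, 1 of 10 and 1 of 8 genes at the limit, namely Col5a1 and Acta2, Myh1, Cd14, Egfl7, Tubb3 and Krt7. The median vehicle signal over all genes on the array of these 6 lists lay between 3.51 and 4.22. The log2 of a list's mean signal was 5.75 to 6.13 in NaF and 6.58 to 6.70 in vehicle for leukocyte genes, and 5.26 to 5.75 in NaF and 5.76 to 5.89 in vehicle for mesenchymal genes. It was 6.85 to 7.14 in NaF and 6.42 to 6.70 in vehicle for muscle genes, and 5.26 to 5.56 in NaF and 5.11 to 5.16 in vehicle for neural genes. The ranges of NaF and vehicle overlapped for the endothelial and gland lists. The means of the leukocyte, muscle and mesenchymal lists came mostly from the genes at the signal limit. Cd14 had 10.06 in vehicle, where the other leukocyte genes had 2.96 to 5.73, and Myh1 had 9.67, where the other muscle genes had at most 6.78. The neural mean did not rest on Tubb3 alone, which had 7.14 in vehicle, where the other neural genes had at most 5.55. Mitf of that list, below the limit, had 5.43 in vehicle and 6.53 at 12 h of NaF. Beside Col5a1 and Acta2 the genes of the mesenchymal list had at most 5.69, and the defining markers Ptprc, Myod1, Sox10 and Col1a1 had 3.17, 2.42, 5.07 and 4.14. Vim, often used as a mesenchymal marker, was counted with the intermediate filaments and not on that list, and had 11.35 in vehicle. The part of these lists in the keratin and Tp63 results was not tested.

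The deposited signals of the arrays were on a common scale. The median of all probe sets lay between 5.32 and 5.35, and vehicle arrays correlated with each other at 0.996 to 0.999. Normalization before deposit, which was not stated, can make medians equal, so they give no measure of the RNA per cell. Of 11 tested reference genes 1 was higher and 2 lower at 12 h, with a median of 0.04, beside 29.7% higher and 30.8% lower over all tested probe sets. Single reference genes moved by more than Krt5 or Krt17 did: Gusb fell by 1.01 (limma adjusted p = 0.00049) and Hprt1 fell by 0.62 (adjusted p = 0.0009) at 12 h, and Tfrc rose by 0.80 (adjusted p = 0.00053). Tbp had a change of 0.25 (adjusted p = 0.10), and Gapdh changed by 0.05, 0.11 and 0.04 (limma adjusted p = 0.70, 0.23 and 0.66). The gap between the 3′ and 5′ probe sets of Gapdh, which widens with RNA degradation, lay between 0.171 and 0.381 in NaF and between 0.182 and 0.506 in vehicle.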

How the data were processed

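Gene expression was measured on 7 Affymetrix arrays, 3 of NaF and 4 of vehicle, each with pooled RNA of 3 experiments. The authors scanned the arrays and analyzed them in GeneSpring GX; the version, the summarization step and the normalization were not stated in the sources used here. Each deposited value was a log2 signal of a probe set, and no further scaling was applied. The array at 0 h was taken as vehicle, as the methods describe it. Gene symbols came from the platform annotation, in which 20832 had 1 symbol, 436 several and 9831 none, and no gene was named from several. A gene stands with its brightest probe set.

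Probe sets with a log2 signal of 7 or more on any array were tested, in place of detection calls. The limma package (3.58.1, under R 4.3.3) was used for tests (lmFit, eBayes, Benjamini-Hochberg over all tested probe sets, adjusted p under 0.05). Each NaF array was set against the 4 vehicle arrays (3 residual and 2.67 prior degrees of freedom), so the lone array is assumed to vary like vehicle, and p-values measure only the spread between pooled vehicle samples of different times. The 3 NaF arrays were also tested together (5 residual degrees of freedom). The number of arrays limits the precision. Fits were tested on simulated data.

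The genes, lists and tests were chosen with earlier results of these data known. All listed genes, other tested keratins, up to 4 genes per list by size of change at 12 h, the 5 genes most like Tp63 and Krt15, and Gapdh were named, and exceptions are stated. Alternatives were other baselines, filters and scalings, a variance trend, averaged probe sets, time as a block, 2-fold, and each array left out. The vehicle trend fits, the slope test and the count without Krt15 were added after the data were seen.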

Additional observations from a re-analysis of the deposited data

Results flagged for a closer look

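Of the 4 vehicle arrays of Krt18, that of 0 h stood apart, with a gap to the nearest of the others of 0.968 of the whole range (3.19, 2.91, 2.92 and 2.92 at 0, 3, 6 and 12 h). The limit used to single out a gap is passed by chance in about 1 in 20 groups, and this gap is beyond it. All 11 probe sets were searched, and the Krt18 values of 6 and 12 h were tied, so that rate cannot be applied to this gap. All 4 values are far below the signal limit.

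The NaF arrays of 12 h and 3 h differed for 4 genes by the direct limma test given above. The log2 differences were -0.35 for Krt5, -0.33 for Krt17, -0.38 for Krt8 and -0.86 for Tp63. This contrast takes no account of the change in vehicle, so it is not a difference between effects of NaF. Against vehicle of the same time, with no test, Krt15 had -0.19 at 3 h and -1.91 at 12 h. Krt13 had -0.20 and -1.60, and Tp63 had 0.15 and -1.01.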

How the results depend on the processing

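Under other settings, 374 tests of single genes kept direction and side of the threshold, 8 lost and 6 gained a call, and 6 reversed. Part of the 374 could not have differed, since averaging probe sets left every tested gene but Tp63 with the same values. At 3 h, 6 h and over all times the main fit had no call that could be lost. Krt14 reversed: 0.0066 at 3 h with array medians equal and, with quantile normalization, 0.051 at 6 h, 12 h and 12 h minus 3 h and 0.034 over all times. Tp63 at 3 h lay between -0.013 and 0.12 without 1 vehicle array. At 12 h, 4 genes were lower without a filter (Krt15 and Krt13 lost, adjusted p = 0.081 and 0.13), 4 to 6 without 1 vehicle array, and Krt14 was called with a variance trend (adjusted p = 0.032). Between 12 and 3 h, Tp63 was lost without a filter (adjusted p = 0.064) and Krt15 was called without the vehicle array of 12 h (adjusted p = 0.032). The linear vehicle trend gave 3 genes at 6 h. Over all times, 0 to 1 gene was lower without 1 array (Tp63 by 0.59, adjusted p = 0.039, without NaF 3 h). Probe sets called at 3 h numbered 1032, 223 without a filter and 205 to 808 without 1 vehicle array (205 without that of 6 h and 347 without that of 12 h). Over all times they numbered 1017, 619 without a filter (61.9% higher, against 50.2%) and 58 to 3328 without 1 array (58 without vehicle 6 h, 3328 without NaF 3 h, and the count moved by over 1.5 times whichever array was left out). With time as a replicate block, pairing NaF and vehicle arrays of 3, 6 and 12 h, 0 were called and 2426 had an unadjusted p under 0.05. Whether arrays of 1 time share cultures was not stated in the sources used here. At 2-fold 172, 645 and 1251 probe sets passed at 3, 6 and 12 h, against 75, 300 and 571 at 2.5-fold. The cause of these shifts was not tested. With 1 array per condition, small changes at 3 and 6 h may go uncalled, and signals under the limit carry no comparison.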
